A study of Mus musculus with 6 samples.

Results

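Mitochondrial carriers are the proteins that move metabolites across the inner mitochondrial membrane, and their genes were read here in mouse memory B cells. The members were the symbols of the deposited count table that begin with Slc25a and a digit, together with the uncoupling protein genes Ucp1, Ucp2 and Ucp3 and the pyruvate carrier genes Mpc1 and Mpc2. They were chosen by symbol, not by value, and came to 53 of the 35186 symbols counted. The cells were sorted from C57BL/6J spleen for binding the hapten antigen NP. They came from animals labelled Nix-/-Bnip3-/- (DKO, 3 libraries) and from animals labelled wild type (WT, 3 libraries). Nix is another name for Bnip3l, and both genes encode receptors on the outer mitochondrial membrane that mark mitochondria for autophagy (mitophagy). About 1000 sorted cells went into a library, and polyadenylated RNA was enriched. How and in which cells the 2 genes were deleted, the age of the animals, and whether replicates are different animals are not in the labels, so p-values measure the spread between these libraries, which may be technical.

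The inner membrane is closed to most charged molecules, and the carriers of the SLC25 family exchange or co-transport them between cytosol and matrix. They pass ADP in and ATP out, supply phosphate, and connect the citric acid cycle, amino acid breakdown, fatty acid oxidation, iron and heme metabolism and the cofactor pools of the matrix to the rest of the cell. The pyruvate carrier is built from MPC1 and MPC2, which belong to a separate family. In lymphocytes these routes are known for their part in the switch between resting and activated metabolism.

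Depth was low, with 444461 to 517057 counts in libraries labelled DKO and 312908 to 500527 in WT libraries. Libraries labelled DKO held a count for 23580 to 24787 symbols and WT libraries for 17831 to 18486. After scaling, 1 count was worth 1.84 to 2.26 normalized CPM (CPM computed on the scaled library size) in libraries labelled DKO and 3.86 to 5.25 in WT libraries. All symbols together came to 9.52e+05 to 1.01e+06 normalized CPM in libraries labelled DKO and 1.63e+06 to 1.93e+06 in WT libraries. Sums over a class or list are to be read beside this. Bnip3l had 10, 16 and 41 counts in libraries labelled DKO and 1, 8 and 0 in WT libraries, so its mean went against the labels, while Bnip3 had 2, 24 and 11 against 25, 62 and 6. Directions are therefore those between libraries as labelled. Of the B cell markers, the antigen receptor subunit gene Cd79a had 0, 2 and 4 counts in libraries labelled DKO and 3, 0 and 0 in WT libraries, and Ms4a1 (CD20) had 42, 70 and 65 against 28, 0 and 8. Summed over the list, 8 B cell markers came to 256 to 323 normalized CPM in libraries labelled DKO and 194 to 376 in WT libraries.

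All 53 carrier symbols had at least 1 count in the table, and 16 had a count in every library. A library labelled DKO held a count for 45, 48 and 45 of them (replicates 1, 2 and 3) and a WT library for 37, 38 and 37. This followed the table as a whole: 67.0% to 70.4% of all symbols had a count in libraries labelled DKO and 50.7% to 52.5% in WT libraries. The carriers with enough counts for a test numbered 19; the filter asked for 21.2 CPM in at least 3 libraries, a level that 14 of the 19 reached in more DKO-labelled than WT libraries and 1 in more WT libraries. The 34 without a test are given by their counts. The raw counts of the members are shown in the heat map by substrate.

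**Figure D1:**
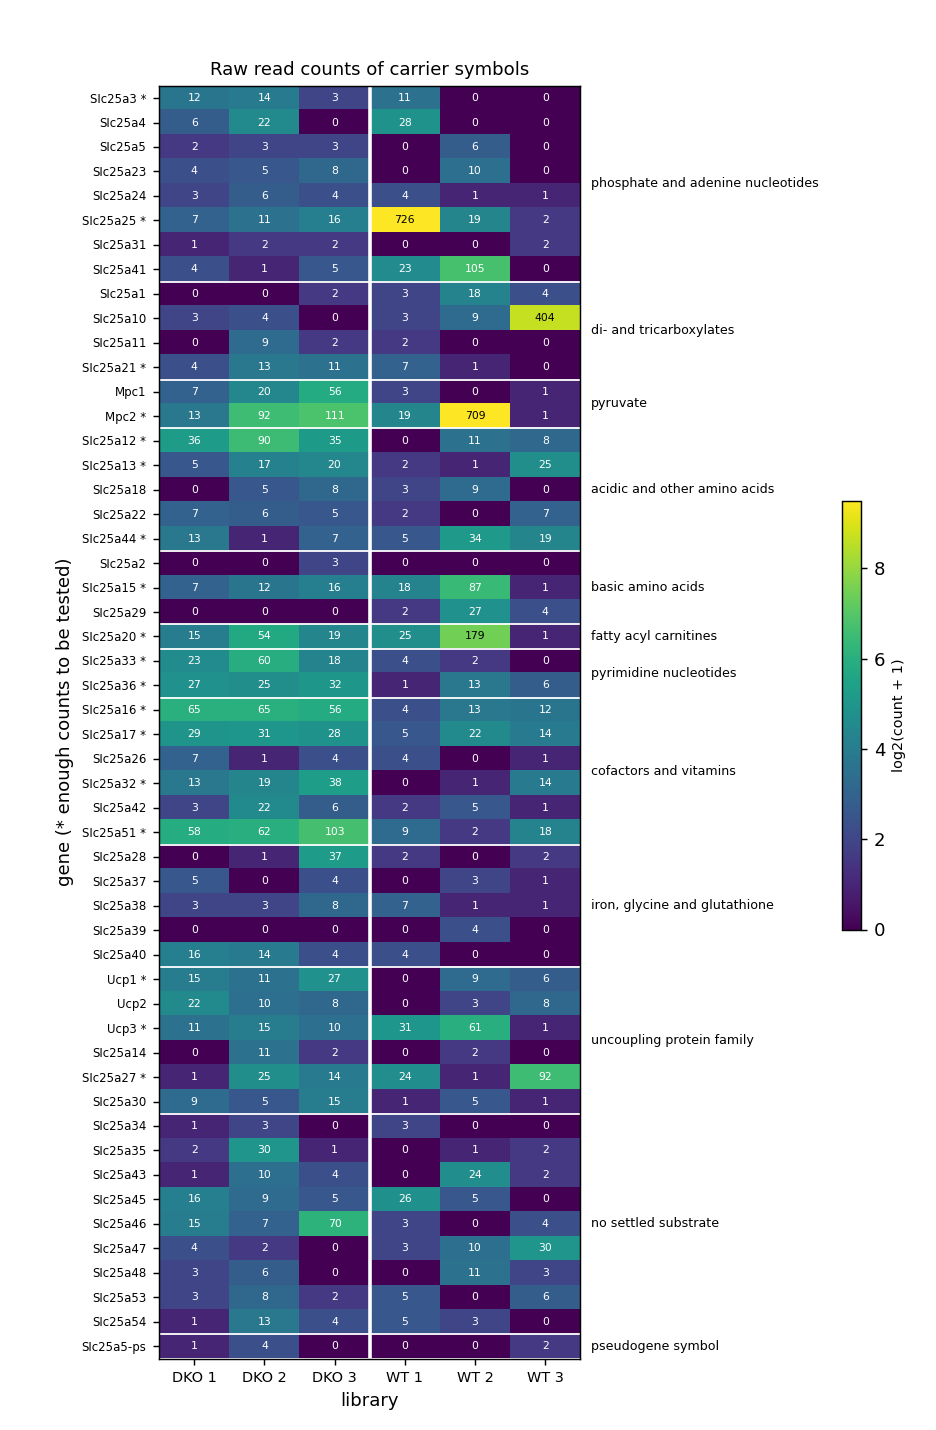
Raw read counts of the carrier symbols reported here (down the page, grouped by transported substrate) in the 3 libraries labelled DKO and the 3 WT libraries (across), with the count printed in each cell and coloured as log2(count + 1); a star marks genes that were tested. The brightest cells are Slc25a25 with 726 counts in WT library 1, Mpc2 with 709 in WT library 2 and Slc25a10 with 404 in WT library 3.

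No carrier passed the test. In edgeR's quasi-likelihood test 0 of the 19 had an adjusted p under 0.05 in either direction, where the share of all 8895 tested genes called was 0% higher and 0% lower. At an unadjusted p under 0.05 there were 2 carriers higher in libraries labelled DKO, among them Slc25a33, and 2 lower, Slc25a25 and Slc25a44. Both higher ones had reached the filter level in libraries labelled DKO alone, so their number supports nothing. The background at that level was 5.49% of tested genes higher and 6.59% lower. DESeq2 called 0 carriers, where it called 2.45% of genes higher and 4.31% lower; it gave Slc25a25 and Mpc2 no adjusted p. Limma-voom called 0 carriers and 0 genes. Of the 19, 10 had a log2 fold change above 0 and 9 below, with a median of 0.07, beside a median of -0.17 over all tested genes. The values given here ran between -5.83 for Slc25a25 and 2.75 for Slc25a33. Changes in the number of cells of a type and in RNA per cell cannot be told apart in these samples.

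In 5 of the 19 tested carriers every DKO-labelled library lay above every WT library, and in 0 every one lay below. The background was 12.8% of tested genes above and 6.39% below. Among the 5 were Slc25a16, Slc25a51, Slc25a12 and Slc25a33. Slc25a33 had passed the filter through the DKO-labelled libraries alone, so no weight rests on the number 5. With library totals in place of scaling factors the number above was 8.

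**Figure D2:**
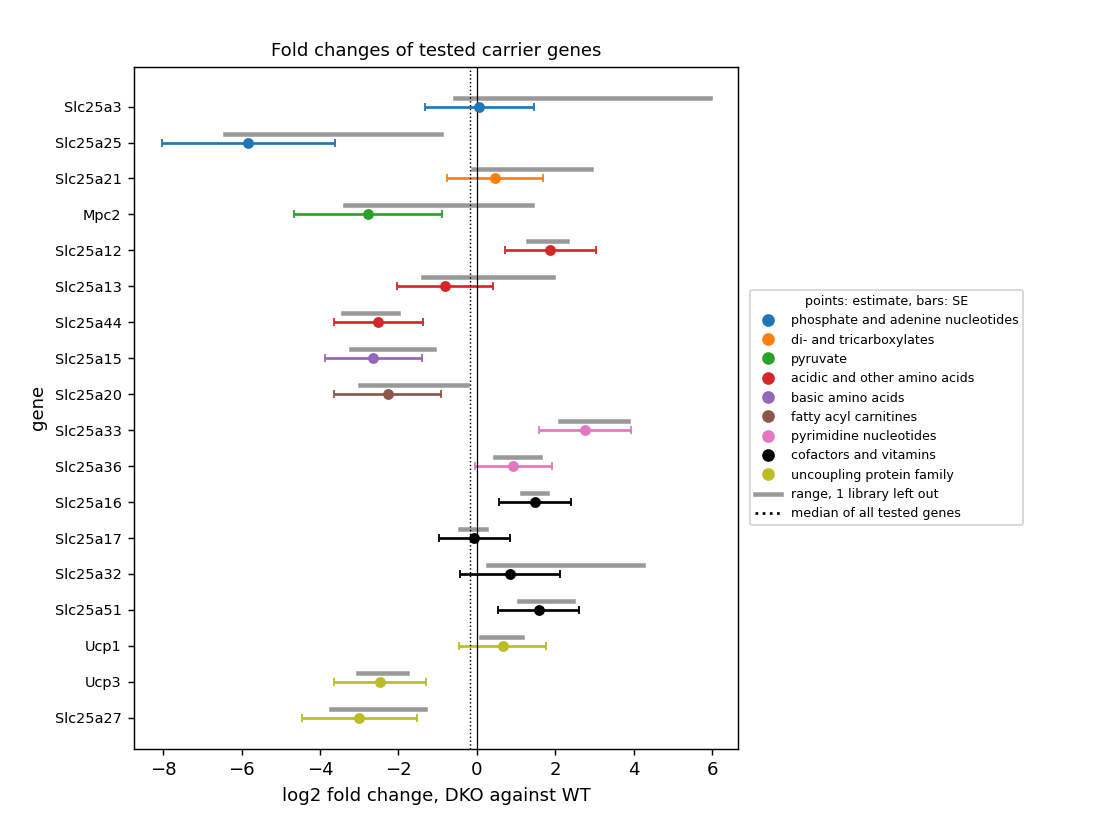
Log2 fold change (x axis, DKO against WT) of the tested carrier genes reported here (y axis), coloured by substrate; points are edgeR estimates, bars 1 standard error, the grey line above each point the range with 1 library left out, and the dotted line the median of all tested genes at -0.17. Slc25a25 at -5.83 and Slc25a33 at 2.75 stand at the ends, and the grey lines of Mpc2, Slc25a13, Slc25a3, Slc25a17 and Slc25a21 cross 0.

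Carriers of cofactors and vitamins were the class with the most tested members, and with the most tested members above 0 in log2 fold change. This class of 7 genes summed to 418, 418 and 480 normalized CPM in libraries labelled DKO and 125, 166 and 320 in WT libraries, or 439 ± 35.9 against 204 ± 103 (SD, n = 3 each). The 2 groups did not overlap, with scaling factors of TMM, TMMwsp or DESeq2 or with library totals alone. Of the 5 members tested, 4 had a log2 fold change above 0 and 1 below (median 1.47). Over all tested genes 45.5% lay above 0 (median -0.17), or 64.3% with library totals alone. Not every tested member of the class had reached the filter level in a WT library, so no weight rests on the number 4.

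Slc25a16, linked to the import of coenzyme A (chromosome 10, 62920633 to 62946498, mm10), had 65, 65 and 56 counts in libraries labelled DKO and 4, 13 and 12 in WT libraries. Its normalized CPM were 147, 120 and 108 against 20.9, 50.2 and 63.0, and every library labelled DKO lay above every WT library. Slc25a16 had a log2 fold change of 1.47 (SE 0.92, edgeR adjusted p = 0.502), between 1.14 and 1.79 with 1 library left out. Slc25a51, the carrier of NAD (chromosome 4, 45395923 to 45408766), had 58, 62 and 103 counts in libraries labelled DKO and 9, 2 and 18 in WT libraries. The groups did not overlap, with means of 148 ± 45.2 against 49.8 ± 43.5 normalized CPM (SD, n = 3 each). The log2 fold change of Slc25a51 was 1.58 (SE 1.03, edgeR adjusted p = 0.524), between 1.06 and 2.46 with 1 library left out.

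The other members of the class were less separated. Slc25a32, linked to folate and FAD import, had 13, 19 and 38 counts against 0, 1 and 14; WT library 3 reached the level of the libraries labelled DKO, and without it the log2 fold change of 0.85 (SE 1.27) became 4.23. Slc25a17, a peroxisomal carrier of cofactors, had similar means in both groups. There were 29, 31 and 28 counts in libraries labelled DKO and 5, 22 and 14 in WT libraries, or 59.0 ± 5.92 against 61.5 ± 31.2 normalized CPM (SD, n = 3 each). The fitted log2 fold change was -0.07 (SE 0.91), and 0.74 with library totals alone. Slc25a42, a coenzyme A carrier, had 3, 22 and 6 counts against 2, 5 and 1, and Slc25a26, the S-adenosylmethionine carrier, 7, 1 and 4 against 4, 0 and 1; neither was tested.

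Other measures stand beside this class. All libraries labelled DKO had more symbols with a count, as given above. The list of 8 monocyte and macrophage markers, 7 of which were counted, summed to 430 to 842.5 normalized CPM in libraries labelled DKO and 78.3 to 661 in WT libraries. The sums overlapped, and the list was split. In normalized CPM every library labelled DKO lay above every WT library for Lyz2 (35, 92 and 206 counts against 4, 0 and 10) and Itgam (81, 181 and 147 against 1, 9 and 21). The groups overlapped for Vcam1 (15, 17 and 15 against 1, 1 and 11), Cd68 (27, 5 and 1 against 1, 0 and 0), Csf1r (15, 10 and 27 against 0, 43 and 5), Fcgr1 (13, 41 and 26 against 6, 105 and 0) and Spic (4, 9 and 13 against 2, 13 and 12), and the last 3 had log2 fold changes below 0. The part of these measures in the carrier values was not tested.

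**Figure D3:**
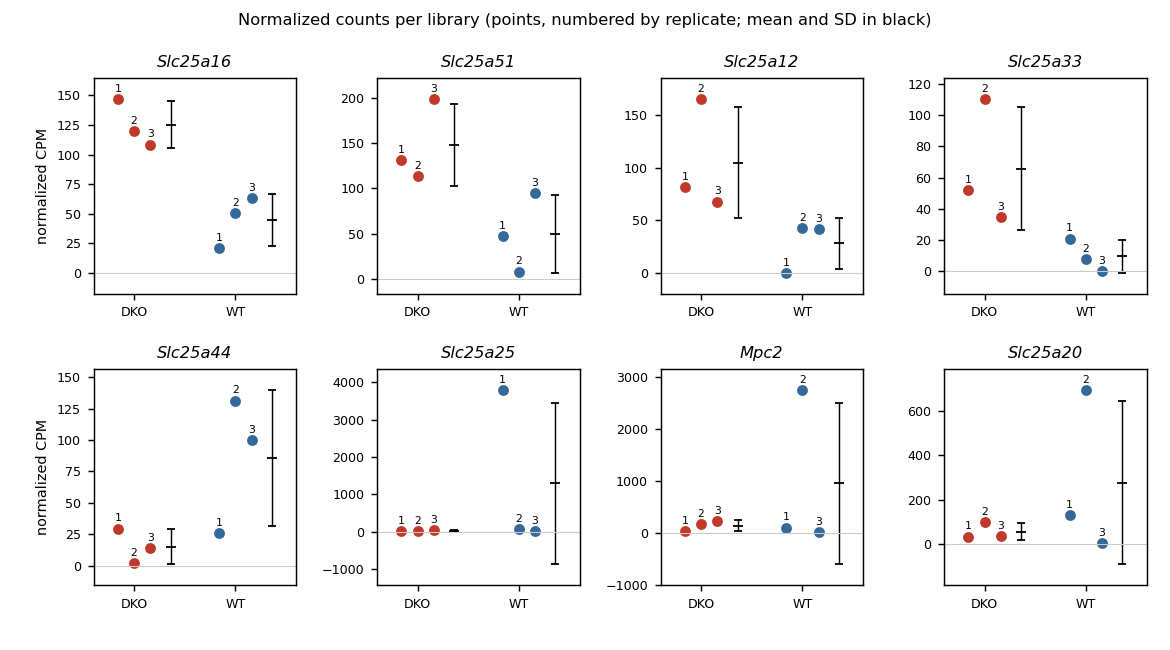
Normalized CPM (y axis, CPM computed on the scaled library size, each panel with its own range) of 8 carrier genes in libraries labelled DKO (left, red) and WT libraries (right, blue), with points numbered by replicate and the mean and SD in black. In Slc25a16, Slc25a51, Slc25a12 and Slc25a33 every red point lies above every blue point, in Slc25a44 the groups overlap, and Slc25a25, Mpc2 and Slc25a20 each have 1 WT library far above the rest.

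Both carriers of pyrimidine nucleotides, which supply the building blocks for mitochondrial DNA and RNA, had log2 fold changes above 0. Slc25a33 (chromosome 4, 149744036 to 149774277) had 23, 60 and 18 counts in libraries labelled DKO and 4, 2 and 0 in WT libraries. The groups did not overlap, at 65.8 ± 39.6 against 9.54 ± 10.6 normalized CPM (SD, n = 3 each). The log2 fold change was 2.75 (SE 1.18, adjusted p = 0.403 in edgeR), or 2.11 without DKO library 2 and 3.86 without WT library 1. Its paralog Slc25a36 had 27, 25 and 32 counts against 1, 13 and 6, and WT library 2 lay within the DKO-labelled range once normalized (log2 fold change 0.93, SE 0.99).

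The aspartate and glutamate carriers of the malate-aspartate shuttle, which brings reducing equivalents into the matrix, gave values on both sides of 0. Slc25a12, or aralar (chromosome 2, 71271063 to 71367749), had 36, 90 and 35 counts in libraries labelled DKO and 0, 11 and 8 in WT libraries. Every library labelled DKO lay above every WT library, at 81.4, 166 and 67.8 against 0, 42.5 and 42.0 normalized CPM. The log2 fold change was 1.87 (SE 1.16, adjusted p = 0.502 in edgeR), between 1.31 and 2.30 with 1 library left out. Slc25a13, or citrin, had 5, 17 and 20 counts against 2, 1 and 25. Its value of -0.81 (SE 1.21) rested on WT library 3, without which it was 1.94. The oxoglutarate carrier gene of the same shuttle, Slc25a11, had 0, 9 and 2 counts against 2, 0 and 0. Among the shuttle's enzymes, the matrix malate dehydrogenase gene Mdh2 had 10, 15 and 51 counts against 0, 0 and 1, and the matrix aspartate aminotransferase gene Got2, named after its values were seen, had 53, 5 and 6 against 11, 22 and 1. DESeq2 called Mdh2 (adjusted p = 0.0295) and the edgeR test did not (adjusted p = 0.390). Mdh2 had passed the filter only through the libraries labelled DKO, where it was high.

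The RefSeq promoters of Slc25a12, Slc25a16 and Slc25a33 are shown because these are carriers whose groups did not overlap and that had an entry in the table used. Each is 300 bases, 250 before and 50 after the annotated start, on GRCm38.p6, and 41 of the 53 symbols had an entry. Capitals mark matches, on either strand, to 4 motifs of factors active at promoters of nuclear genes for mitochondrial proteins: GCGC and TGCGC joined by 1 base of any kind (the core of nuclear respiratory factor 1), CCGGAAG (ETS factors), CACGTG (the E-box, which reads the same on both strands) and CCAAT.
Slc25a12, chr2:71367706-71368005, minus strand: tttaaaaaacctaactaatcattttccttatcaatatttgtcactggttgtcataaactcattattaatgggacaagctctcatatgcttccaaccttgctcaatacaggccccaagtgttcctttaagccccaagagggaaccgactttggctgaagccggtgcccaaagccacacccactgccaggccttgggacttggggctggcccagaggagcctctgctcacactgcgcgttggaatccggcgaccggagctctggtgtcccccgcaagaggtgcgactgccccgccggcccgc
Slc25a16, chr10:62920383-62920682, plus strand: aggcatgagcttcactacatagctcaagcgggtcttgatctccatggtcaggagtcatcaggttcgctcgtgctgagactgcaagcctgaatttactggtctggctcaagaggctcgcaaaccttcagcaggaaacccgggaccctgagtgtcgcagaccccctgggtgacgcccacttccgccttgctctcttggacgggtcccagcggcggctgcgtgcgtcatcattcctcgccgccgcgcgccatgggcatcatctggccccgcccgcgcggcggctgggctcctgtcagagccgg
Slc25a33, chr4:149774218-149774517, minus strand: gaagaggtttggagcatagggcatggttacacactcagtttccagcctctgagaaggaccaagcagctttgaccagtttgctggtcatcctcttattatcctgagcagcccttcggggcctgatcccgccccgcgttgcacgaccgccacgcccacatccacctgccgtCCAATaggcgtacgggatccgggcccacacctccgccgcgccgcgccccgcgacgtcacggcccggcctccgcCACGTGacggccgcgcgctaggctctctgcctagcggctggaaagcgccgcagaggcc
The Slc25a33 window held 1 CCAAT and 1 E-box, and the windows of Slc25a12 and Slc25a16 held 0 matches to the 4 motifs. Among promoters of all 27025 symbols in the table the motifs were found in 4.78%, 9.12%, 7.24% and 37.9%, in the order given. Among the 41 carrier promoters they were found in 2, 8, 6 and 19.

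In the WT libraries 1 carrier gene, a different one each time, held 49.7% to 70.6% of all carrier counts. It was Slc25a25 in WT library 1 (70.6% of 1029 carrier counts), Mpc2 in WT library 2 (49.7% of 1427) and Slc25a10 in WT library 3 (57.1% of 708). In libraries labelled DKO the leading gene held 12.7%, 10.4% and 13.1% of 513, 886 and 849 carrier counts. The whole family took 0.115% to 0.171% of all counts in libraries labelled DKO and 0.221% to 0.329% in WT libraries. Without these 3 genes it was 0.110% to 0.151% against 0.0898% to 0.138%, and the groups overlapped. Of all 53 members, 28 had over 50% of their summed normalized CPM in 1 library, a WT library for 21 and a library labelled DKO for 7. The same share over all symbols was not computed, and 1 count was worth more normalized CPM in WT libraries. These numbers are therefore not read as a trait of the carriers. Among the tested carriers it was 6 of 19, or 31.6%, beside 29.7% of all tested genes.

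**Figure D4:**
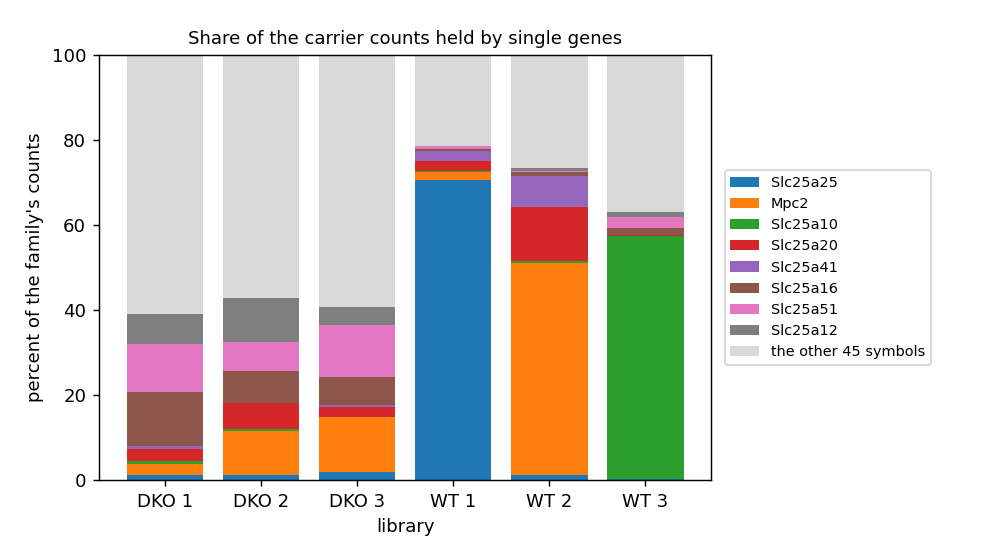
Percent of each library's carrier counts (y axis) held by 8 named genes and by the other 45 symbols together, in the 3 libraries labelled DKO and the 3 WT libraries (x axis). Slc25a25, Mpc2 and Slc25a10 fill 70.6%, 49.7% and 57.1% of WT libraries 1, 2 and 3, while no gene exceeds 13.1% in a library labelled DKO.

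Carriers of adenine nucleotides and phosphate, which serve ATP synthesis, had few counts apart from 2 genes. Slc25a25, a calcium-dependent ATP-Mg/phosphate carrier (chromosome 2, 32414487 to 32451445), had 7, 11 and 16 counts in libraries labelled DKO and 726, 19 and 2 in WT libraries. The groups overlapped, since WT library 3 lay below all libraries labelled DKO. Its log2 fold change of -5.83 (SE 2.21, edgeR adjusted p = 0.390) became -0.92 without WT library 1. The gene Naif1 lies over its span on the other strand, and the strand setting of the counts is not given. Slc25a41, a relative of the same carriers, had 4, 1 and 5 counts against 23, 105 and 0 and was not tested. Its paralogs Slc25a23 (4, 5 and 8 against 0, 10 and 0) and Slc25a24 (3, 6 and 4 against 4, 1 and 1) had 10 counts or fewer in every library.

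The ADP/ATP carriers and the phosphate carrier, textbook examples of abundant inner membrane proteins, were near the limit of counting. Slc25a4 (ANT1) had 6, 22 and 0 counts in libraries labelled DKO and 28, 0 and 0 in WT libraries. Slc25a5 (ANT2) had 2, 3 and 3 against 0, 6 and 0, and the germ cell form Slc25a31 1, 2 and 2 against 0, 0 and 2. The symbol Slc25a5-ps, a pseudogene, had 1, 4 and 0 counts against 0, 0 and 2; processed copies of Slc25a5 make reads of this gene uncertain. Slc25a3, the phosphate carrier (chromosome 10, 91116574 to 91124059), had 12, 14 and 3 counts against 11, 0 and 0. The fitted log2 fold change was 0.07 (SE 1.39, adjusted p = 0.994 in edgeR), but 5.95 without WT library 1, which held all of its WT counts. Per kilobase of exon, Slc25a3 averaged 3.53 ± 2.15 normalized CPM in libraries labelled DKO and 3.45 ± 5.98 in WT libraries, and Slc25a5 3.21 ± 0.410 against 4.695 ± 8.13 (SD, n = 3 each).

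The 2 subunits of the pyruvate carrier, which form a complex, both had their lowest DKO-labelled value in library 1 and their highest in library 3. This order was not shared in the WT libraries, where Mpc1 had 0 counts in library 2 and Mpc2 had 709. Mpc1 had 7, 20 and 56 counts in libraries labelled DKO and 3, 0 and 1 in WT libraries, and the groups did not overlap. The lowest library labelled DKO was at 15.8 normalized CPM and the highest WT library at 15.7, a gap below the worth of 1 count. It was not tested. Mpc2 (chromosome 1, 165460637 to 165481214) had 13, 92 and 111 counts against 19, 709 and 1. The WT libraries spanned the whole range of the libraries labelled DKO. Its log2 fold change of -2.78 (SE 1.89, edgeR adjusted p = 0.541) became 1.40 without WT library 2.

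Carriers of di- and tricarboxylates, which connect the citric acid cycle to the cytosol, had few counts outside WT library 3. The class had 7, 26 and 15 counts in libraries labelled DKO and 15, 28 and 408 in WT libraries, with 404 of the last in Slc25a10. Slc25a1, which exports citrate for fatty acid synthesis (chromosome 16, 17925223 to 17928219), had 0, 0 and 2 counts in libraries labelled DKO and 3, 18 and 4 in WT libraries, with groups that did not overlap. At their closest the groups of Slc25a1 were 2 counts in DKO library 3 and 3 counts in WT library 1. The gene of the enzyme that uses this citrate, Acly, lay the other way with 81, 88 and 45 counts against 0, 10 and 6. Acly had passed the filter only through the libraries labelled DKO, where it was high. Slc25a10, the dicarboxylate carrier (chromosome 11, 120491840 to 120499187), had 3, 4 and 0 counts against 3, 9 and 404. The groups overlapped in raw counts and were apart in normalized CPM, of which 97.0% was in WT library 3. Neither Slc25a1 nor Slc25a10 had enough libraries with counts for the test. Slc25a21, the oxodicarboxylate carrier, was tested at 4, 13 and 11 counts against 7, 1 and 0, with a log2 fold change of 0.46 (SE 1.22) that lay between -0.09 and 2.90 with 1 library left out. Summed, this class came to 15.8 to 47.9 normalized CPM in libraries labelled DKO and 78.3 to 2143 in WT libraries. The sum over all symbols lay the same way, and with library totals alone the groups of the class overlapped.

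Carriers of basic amino acids, Slc25a2 apart, and of acylcarnitines had their highest values in WT library 2. Slc25a15, which exchanges ornithine for citrulline (chromosome 8, 22375551 to 22398597), had 7, 12 and 16 counts in libraries labelled DKO and 18, 87 and 1 in WT libraries. The log2 fold change of Slc25a15 was -2.65 (SE 1.24, edgeR adjusted p = 0.416), or -1.10 without WT library 2. Slc25a29, a carrier of arginine and lysine, had 0 counts in each library labelled DKO and 2, 27 and 4 in WT libraries. With the floor set at 3 counts over all libraries labelled DKO, its mean was at least 22.7-fold lower, and at least 7.87-fold lower without WT library 2. Slc25a2, another ornithine carrier, had 3 counts in 1 library labelled DKO and 0 elsewhere. Slc25a20, which imports acylcarnitines for fatty acid oxidation (chromosome 9, 108662088 to 108684641), had 15, 54 and 19 counts against 25, 179 and 1. Its log2 fold change of -2.28 (SE 1.36, edgeR adjusted p = 0.487) became -0.26 without WT library 2. The next enzyme of that route, carnitine palmitoyltransferase 2 (Cpt2), had 11, 22 and 12 counts against 6, 88 and 1, with its highest value in the same library.

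Among the remaining amino acid carriers, Slc25a44, which imports branched-chain amino acids (chromosome 3, 88410498 to 88425139), had 13, 1 and 7 counts in libraries labelled DKO and 5, 34 and 19 in WT libraries. In normalized CPM the values were 29.4, 1.84 and 13.6 against 26.1, 131 and 99.8. The groups overlapped only between DKO library 1 and WT library 1. The log2 fold change was -2.51 (SE 1.14, adjusted p = 0.412 in edgeR), between -3.41 and -2.01 with 1 library left out. The glutamate carrier genes Slc25a22 (7, 6 and 5 against 2, 0 and 7) and Slc25a18 (0, 5 and 8 against 3, 9 and 0) were not tested.

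The uncoupling proteins and their relatives, which let protons or anions cross the membrane, summed to 131, 142 and 147 normalized CPM in libraries labelled DKO and 293, 313 and 567 in WT libraries. These sums did not overlap with TMM, TMMwsp or DESeq2 factors or with library totals alone. In normalized CPM the sum over all symbols lay the same way. The direction of the class sum was that of Ucp3 and Slc25a27 only, and in each of these genes the groups overlapped. The other members had higher means in libraries labelled DKO. In normalized CPM they were 35.5 against 22.1 for Ucp1, 27.9 against 17.9 for Ucp2, 19.5 against 9.93 for Slc25a30 and 8.04 against 2.58 for Slc25a14. Ucp3, the muscle form (chromosome 7, 100472990 to 100486432), had 11, 15 and 10 counts against 31, 61 and 1. WT libraries 1 and 2 lay above, and WT library 3 below, all libraries labelled DKO (log2 fold change -2.47, SE 1.17, edgeR adjusted p = 0.419). Slc25a27, also called UCP4 (chromosome 17, 43641891 to 43667214), had 1, 25 and 14 counts against 24, 1 and 92, and its log2 fold change of -2.99 (SE 1.46, edgeR adjusted p = 0.420) became -1.32 without WT library 3. Ucp1, known for heat production in brown fat, had 15, 11 and 27 counts against 0, 9 and 6 (log2 fold change 0.66, SE 1.11). Ucp2, the form known from lymphoid and myeloid cells, had 22, 10 and 8 against 0, 3 and 8 and was not tested. Per kilobase of exon, Ucp1 averaged 21.7 ± 9.83 normalized CPM in libraries labelled DKO and 13.5 ± 11.7 in WT libraries, Ucp2 3.99 ± 2.72 against 2.56 ± 3.105, and Ucp3 7.64 ± 1.34 against 42.8 ± 37.5 (SD, n = 3 each). These levels depend on the exon length used, 1.636 kb for Ucp1 and 6.989 kb for Ucp2. In normalized CPM not divided by length, libraries labelled DKO had 33.9, 20.2 and 52.3 for Ucp1 and 49.8, 18.4 and 15.5 for Ucp2, which overlapped. A list of 6 stromal markers lay the same way as the class sum. The list came to 219 to 387 normalized CPM in libraries labelled DKO and 506 to 1034 in WT libraries, with no marker at 0 in a whole group. In raw counts its sums overlapped, at 171, 119 and 136 against 198, 131 and 104. Pdgfrb had similar means (37.5 against 38.6 normalized CPM), and Cdh5 had 13, 4 and 11 counts against 0, 85 and 35. The vessel marker Pecam1 lay the other way from the list's sum, with 72, 55 and 60 counts against 13, 5 and 3. The part of these cells was not tested. Slc25a30 (9, 5 and 15 against 1, 5 and 1) and Slc25a14 (0, 11 and 2 against 0, 2 and 0) were not tested.

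The carriers of iron, glycine and glutathione, which serve heme and iron-sulfur cluster synthesis and redox defence, had too few counts for the test in all 5 cases. Mitoferrin 1 (Slc25a37) had 5, 0 and 4 counts in libraries labelled DKO and 0, 3 and 1 in WT libraries. Mitoferrin 2 (Slc25a28) had 0, 1 and 37 against 2, 0 and 2, nearly all in DKO library 3. The glycine carrier gene Slc25a38 had 3, 3 and 8 against 7, 1 and 1. Slc25a39, needed for glutathione import, had 4 counts in WT library 2 and 0 elsewhere, while its paralog Slc25a40 had 16, 14 and 4 against 4, 0 and 0. Fech, the last enzyme of heme synthesis, had 10, 20 and 9 counts against 6, 145 and 6 (log2 fold change -3.01, SE 1.28, edgeR adjusted p = 0.403). Of 8 erythroid markers, Hba-a2 and Hbb-bs had 0 counts in every library, and the list summed to 22.6 to 34.97 normalized CPM in libraries labelled DKO and 61.8 to 157 in WT libraries. In raw counts its sums overlapped, at 10, 19 and 18 against 30, 16 and 27. The sum of normalized CPM over all symbols lay the same way as the list.

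The 9 members without a settled substrate summed to 104 to 167 normalized CPM in libraries labelled DKO and 209 to 247 in WT libraries, groups that overlapped with library totals alone. The sum over all symbols lay the same way in normalized CPM, so this is not read as a trait of the 9 members. None of the 9 was tested. Slc25a47, a liver-enriched carrier, had 4, 2 and 0 counts in libraries labelled DKO and 3, 10 and 30 in WT libraries. Its groups overlapped in raw counts and were apart in normalized CPM. Slc25a46, an outer membrane relative linked to mitochondrial shape, had 15, 7 and 70 against 3, 0 and 4. Slc25a45 had 16, 9 and 5 against 26, 5 and 0. The others were Slc25a34, Slc25a35, Slc25a43, Slc25a48, Slc25a53 and Slc25a54, with 0 to 30 counts in libraries labelled DKO and 0 to 24 in WT libraries.

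Per kilobase of exon the order of levels differed between the groups. In libraries labelled DKO the highest carriers were Slc25a33 at 34.9 ± 20.998, Slc25a51 at 26.9 ± 8.20, Slc25a16 at 26.1 ± 4.14, Mpc1 at 25.8 ± 23.3, Ucp1 at 21.7 ± 9.83 and Slc25a17 at 20.7 ± 2.08 normalized CPM (SD, n = 3 each), and neighbours in this order lay within their SDs. In WT libraries they were Slc25a10 at 209.6 ± 350.3, Slc25a25 at 164 ± 275, Slc25a41 at 132 ± 157, Mpc2 at 129 ± 211, Slc25a20 at 56.9 ± 75.5 and Slc25a27 at 51.9 ± 63.3, each with an SD above its mean.

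Other genes of carrier biology had no call in the edgeR test either. Of the TIM22 import route, which inserts carriers into the inner membrane, 11 of 12 listed symbols were counted and 4 tested, 2 above 0 and 2 below (median 0.16). Agk, a subunit of the translocase, had 6, 11 and 14 counts in libraries labelled DKO and 5, 19 and 21 in WT libraries, and its outer membrane receptor gene Tomm70a 11, 14 and 4 against 0, 11 and 3. The small chaperone genes Timm8a1, Timm9, Timm10 and Timm13 had too few counts. The 3 porin genes Vdac1, Vdac2 and Vdac3, which form the outer membrane channels, had log2 fold changes of 0.71 (SE 1.17), 0.14 (SE 1.20) and 1.35 (SE 1.36). Of 20 other inner membrane transporters 19 were counted and 11 tested, 6 above 0 and 5 below (median 0.17). The smallest p in each direction belonged to Sfxn2, a sideroflexin, with 12, 24 and 26 counts against 1, 2 and 2, and to Abcb8, an ABC transporter, with 15, 5 and 16 against 12, 4 and 56. Sfxn2 had passed the filter only through the libraries labelled DKO, where it was high, and most WT counts of Abcb8 were in WT library 3. Of 22 enzymes that act on carried substrates 15 were tested, 8 above 0 and 7 below (median 0.85).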

How the data were processed

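RNA was sequenced from sorted memory B cells, 3 libraries labelled DKO and 3 WT. The values deposited by the authors are whole-number counts of reads for each gene symbol, without normalization. CASAVA, STAR, edgeR, R 3.6.3 and mm10 are named, without roles, in the submitters' processing notes. Neither the counting program nor its strandedness or gene models are stated in the sources used here. Of the 53 members, 28 have another annotated gene over their span, 12 of them a protein-coding gene on the other strand, so reads of these pairs cannot be told apart. Columns were matched to samples by name, and 0 were left unmatched.

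The test was run in edgeR 4.0.16 on R 4.3.3 with filterByExpr (minimum count 10), TMM, the robust quasi-likelihood F test of DKO against WT over all 6 libraries, and Benjamini-Hochberg adjustment over 8895 genes at a threshold of 0.05. Standard errors are the log2 fold change over the square root of F. Alternatives were other scalings, other filters, DESeq2 1.42.0, limma-voom (3.58.1), no robust estimation, genes left out, the replicate number as a block and each replicate left out. Positions and exon lengths are from GENCODE mouse release M21 on mm10, in which every member matched 1 gene. Floors cover counting error only. Fuller values go to members whose groups did not overlap, the 4 with the smallest p in each direction, the 8 highest in mean normalized CPM per kilobase, and the ADP/ATP, phosphate and pyruvate carriers and Ucp2. Other members are given by counts, and related lists by up to 2 genes with the smallest p in each direction. An item withheld for evaluation counts in the family's totals, class sums and medians but is not reported here by itself. The members, substrate classes and lists were chosen with earlier results of these data known.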

Additional observations from a re-analysis of the deposited data

How the results depend on the processing

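The number of carriers past the threshold was 0 in both directions under all 16 alternative fits, and at an adjusted p of 0.1 in the main edgeR fit. In DESeq2 the adjusted p lay between 0.05 and 0.1 for Slc25a44 (0.0718), Slc25a15 (0.0766), Ucp3 (0.0826), Slc25a27 (0.0868) and Slc25a33 (0.0954). In the edgeR fit with no filter on low counts it lay there for Slc25a10 (0.0607) and Slc25a29 (0.0879). Over all genes the edgeR count of 0 became 22 higher and 108 lower with no filter on low counts (31134 genes fitted), and DESeq2 called 218 higher and 383 lower; the other alternatives gave 0, including each replicate left out. Among the 19 carriers tested, the median of 0.07 (log2) became 0.77 with no scaling factor, 0.37 with no filter, 0.99 with the replicate block and 1.18 in limma-voom, where the medians of all genes were 0.62, 0.29, 0.27 and 0.23; with 1 replicate left out it lay between -0.13 and 0.26. The 5 carriers whose groups did not overlap, with higher values in libraries labelled DKO, became 8 with no scaling factor and 5 to 7 with 1 replicate left out, and the 0 with lower values became 0 to 4; these 2 counts were recomputed as alternatives chosen after seeing the data.

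Of the 19 values, 14 kept their sign with each replicate left out, and 15 moved by over 1.5-fold for at least 1 of the 6. Signs turned for 5 carriers with values near 0 or led by 1 library. Slc25a17 (-0.07) was at 0.74 with no scaling factor, 0.25 with no filter, 0.14 at a mean CPM of at least 10, 0.057 with the replicate block and 0.063 in limma-voom, and between -0.43 and 0.24 with 1 replicate left out. Slc25a3 (0.07) was at -0.072 with size factors of DESeq2, -0.081 in DESeq2, and between -0.55 and 5.95. Slc25a13 (-0.81) was at 0.17 with the replicate block and between -1.37 and 1.94, Mpc2 (-2.78) at 0.37 in limma-voom and between -3.36 and 1.40, and Slc25a21 (0.46) between -0.093 and 2.90. The cause was not tested.

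The replicate numbers pair no samples by the labels. Deviations from the group means correlated at 0.02, 0.03 and 0.04 across genes between same-numbered libraries. Each library correlated best with its own number, but all values were close to 0 and cannot decide whether samples were paired. Depth limits all of this: 3 counts in a library came to 5.52 to 15.8 normalized CPM.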

Other observations

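MTCH1 and MTCH2 are outer membrane relatives of the SLC25 carriers whose symbols lie outside the naming rule. Mtch2, known as an insertase and an apoptosis-linked receptor, had 39, 42 and 36 counts in libraries labelled DKO and 8, 13 and 9 in WT libraries. The groups did not overlap, at 78.4 against 46.4 normalized CPM in the mean, with a log2 fold change of 0.75 (SE 0.87, edgeR adjusted p = 0.728). Mtch1 lay the other way, with 8, 4 and 3 counts against 4, 23 and 12, and was not tested. Ccdc51, the channel of the mitochondrial ATP-sensitive potassium current, had 3, 11 and 2 counts in libraries labelled DKO, where WT libraries had 0 each. These 3 genes were named after their values were seen.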
